A study of Homo sapiens with 8 samples.

Results

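The zinc finger genes described here are those whose symbol is ZNF followed by a number only. Their probes were taken from the table of log2 values deposited for the series, and a probe belonged to the group if its RefSeq gene symbol had that form. ZNF254, ZNF430, ZNF493, ZNF107, ZNF91, ZNF43, ZNF85, ZNF708, ZNF431 and ZNF714 were left out, having been set apart for their high Ago2-IP values. The rule gave 231 probes for 191 protein-coding genes, out of 16065 probes (8757 named genes) in the table. All 231 were among the 16057 probes of the table that passed the filters used here. On the array as a whole the same names cover 510 probes for 364 genes, so fewer than 50% of the designed probes contribute a value. As the left-out genes were chosen on these measurements, the upper end of the values below is trimmed. Of these genes 9 have probes in the table, 17 in all, with a median log2 IP/T of 4.35 in EV cells and a range of 1.14 to 6.11.

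The material is KM-H2, an established Hodgkin lymphoma (HL) cell line of B-cell origin. The cells were transduced with the retroviral vector pMSCV-PIG, either empty (EV) or with the insert of a sponge against miR-155 (cells named miR-155-sp). Such a sponge is a transcript with repeated binding sites for a miRNA that competes for it with the natural targets. Both populations carry the vector and were sorted for GFP, and wild type cells were not among the samples. From each population total RNA (T) and RNA immunoprecipitated with an antibody against Ago2 (IP) were labelled with Cy3 and with Cy5 and hybridized to 2-color Agilent 44k arrays. The 8 samples are thus 4 RNAs, 1 per group, each measured in 2 labellings on 4 arrays. There was no second RNA in any group, so no test was possible, and the spread between the dye orientations given below is technical. The cells showed the markers of the line, as 8 of 9 HL markers, among them TNFRSF8 and CCL17, were well above background in all total RNA channels. Of 6 genes of the B-cell program, which HL cells largely lose, only CD79A was so, and of 6 markers of T cells, myeloid cells, NK cells and erythroid cells none was.

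Ago2 is the Argonaute protein that holds a miRNA and, through it, the bound mRNA. The IP fraction therefore holds mRNAs under control of any miRNA of the cell, not of miR-155 alone. MiR-155 is abundant in HL cells, and its mature form hsa-miR-155-5p is shown because it is the miRNA that the sponge is to bind. Its sequence, credited to RefSeq (GRCh38.p14, chr21:25573983-25574006, plus strand), has the seed, bases 2 to 8, in capitals.
hsa-miR-155-5p: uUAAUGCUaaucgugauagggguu
Numbered ZNF genes mostly encode C2H2 zinc finger proteins, in which tandem fingers read DNA. Many of them carry a KRAB domain that recruits TRIM28 and through it the histone methyltransferase SETDB1, and these proteins silence transposable elements and other repeats. KRAB zinc finger genes arose by tandem duplication and lie in clusters, most of them on chromosome 19. Near-identical paralogs can share sequence with a 60-base probe, and whether the probes below bind more than their own transcript was not tested.

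Numbered ZNF transcripts lay higher in the IP fraction than the other transcripts on the array. In EV cells the median log2 IP/T of the 231 probes was 0.35, compared with -0.25 for all 16057 probes. The arrays with IP in Cy5 gave 0.41 and those with the dyes swapped 0.32. The values ran from -2.72 to 5.04, and the middle 50% of probes from -0.43 to 1.51. Probes with an IP signal at or above 2 times the total signal are called enriched below. In EV cells 77 of the 231 probes were enriched (33.3%), against a background of 15.1% of all probes. A ratio of 8 or more was found for 21 probes (9.09%), against 2.4%. At the other end, 15 probes (6.49%) had an IP/T of 0.5 or less, against 12.9%. The distribution was thus shifted upward over most of its range and drawn out at the top, as the plot of log2 IP/T shows.

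**Figure D1:**
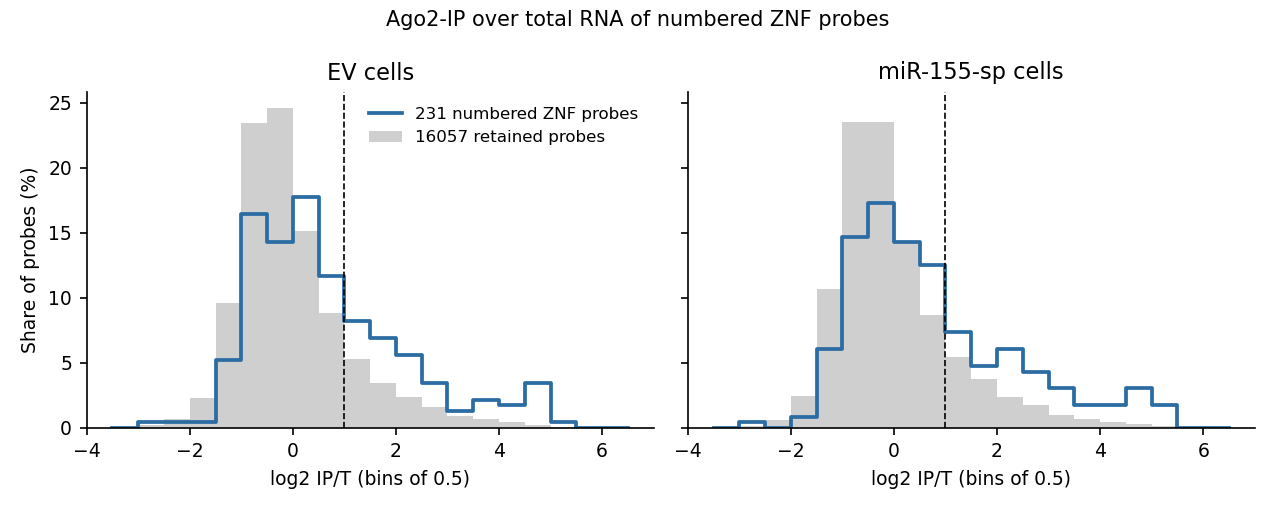
Share of probes (%) in bins of 0.5 of log2 IP/T, in EV cells (left) and miR-155-sp cells (right), for the 231 numbered ZNF probes (line) and all 16057 retained probes (grey bars). The dashed line marks an IP/T of 2, which 33.3% of the ZNF probes reach at the left and 33.8% at the right.

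The same held in cells with the sponge. Their median log2 IP/T was 0.33, with 78 enriched probes (33.8%) against 16% of all probes, and 17 probes (7.36%) at 0.5 or less against 14%. Both cell populations shared 70 of these probes, while 7 were enriched in EV cells only and 8 with the sponge only. Of all 16057 probes 2247 were enriched in both populations, 185 in EV cells only and 321 with the sponge only. All 15 ZNF probes enriched in 1 population lay near the limit, between 0.39 and 1.30 on the log2 scale in both populations. The 7 were probes for ZNF174, ZNF200, ZNF202, ZNF282, ZNF507, ZNF644 and ZNF658, and the 8 for ZNF101, ZNF346, ZNF473, ZNF526, ZNF562, ZNF614, ZNF664 and ZNF670. Over the 231 probes the log2 IP/T of both populations had a Pearson correlation of 0.98 across probes. Over all 16057 probes it was 0.97. The probe sequences are shared by both populations, while each population was hybridized to its own arrays.

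Signal level matters for these ratios, as the ZNF probes were dim. Their median log2 signal over all channels was 8.84 compared with 9.69 for all probes, and 163 of 231 (70.6%) were well above background in all 8 channels. Of these 163, 36 (22.1%) were enriched in EV and 39 (23.9%) in miR-155-sp cells, against 12.7% and 13% of all probes detected to that degree. When all probes were divided by signal into 4 bins of equal size, the share of enriched ZNF probes was 37.1% in the dimmest bin and 33.3% in the brightest, compared with 17.1% and 12.6% of all probes. Background subtraction with normexp in place of the scanner software's correction lowered the share to 16.5% with loess and 16.9% with quantile normalization, against 9.34% and 8.81% of all probes. The ZNF share thus stood above that of all probes with each of these corrections, but its size varied by 2-fold. With normexp, many of the enriched ZNF probes lay in 2 runs of neighboring genes described below. These were 19 of 38 with loess and 20 of 39 with quantile normalization.

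Of the probes above background in every channel, those with the highest IP/T were those for KRAB zinc finger genes of chromosomes 19 and 7. ZNF681 had log2 signals of 9.34 in EV total RNA, 14.33 in EV IP, 9.48 in miR-155-sp total RNA and 14.37 in miR-155-sp IP. Both IP values lay far above both total values, a ratio of 31.8 without the sponge. ZNF680 had signals of 10.40, 15.33, 10.44 and 15.47 in the same order, and ZNF100 had 10.17, 15.04, 10.15 and 15.10. Their IP/T in EV cells was 30.5 and 29.2, and in each case the difference between fractions exceeded that between cell populations many times over. ZNF92 and ZNF429 followed with log2 IP/T values of 4.84 and 4.82. ZNF675, also known as TIZ, an inhibitor of TRAF6 signaling, had 4.56 in EV and 4.70 in miR-155-sp cells.

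The next values at the top were lower. ZNF706, a small zinc finger protein encoded on chromosome 8, had signals of 12.97, 16.55, 12.90 and 16.40 and a log2 IP/T of 3.58 in EV cells. ZNF700, a KRAB zinc finger gene in another run of chromosome 19, had 8.28, 11.32, 7.90 and 11.44, and a log2 IP/T of 3.04. The 6 genes ZNF681 to ZNF675 differed from each other by no more than 0.43. The dye orientations lay farthest apart for ZNF680 (5.27 and 4.59) and gave 4.87 each for ZNF100. Neighbors in this order overlapped in their orientations. Dimmer probes reached the same level. ZNF678 of chromosome 1 had the highest value of all 231 probes, 5.04, with signals of 6.24 in EV total and 11.29 in EV IP RNA, but was well above background in 6 of 8 channels.

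At the low end stood ZNF575 and ZNF467, both bright in total RNA. ZNF575 had log2 signals of 13.17 in EV total, 10.45 in EV IP, 13.21 in miR-155-sp total and 10.69 in miR-155-sp IP RNA, with both total values above both IP values. ZNF467, a factor described in osteoblast and adipocyte differentiation, had 13.89, 11.83, 13.80 and 11.94. Their log2 IP/T in EV cells was -2.72 and -2.06. ZNF512 had -1.62 and ZNF425, a KRAB protein, -1.35, with EV total signals of 8.75 and 8.58 that were below the median of all probes. The last 4, ZNF587, ZNF787, ZNF32 and ZNF607, lay between -1.24 and -1.11, closer to each other than the orientations of ZNF587, ZNF787 and ZNF32 were. In miR-155-sp cells all 8 stayed at -1.16 or below. With normexp the ratios of the 6 genes from ZNF512 on were above 0.5.

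**Figure D2:**
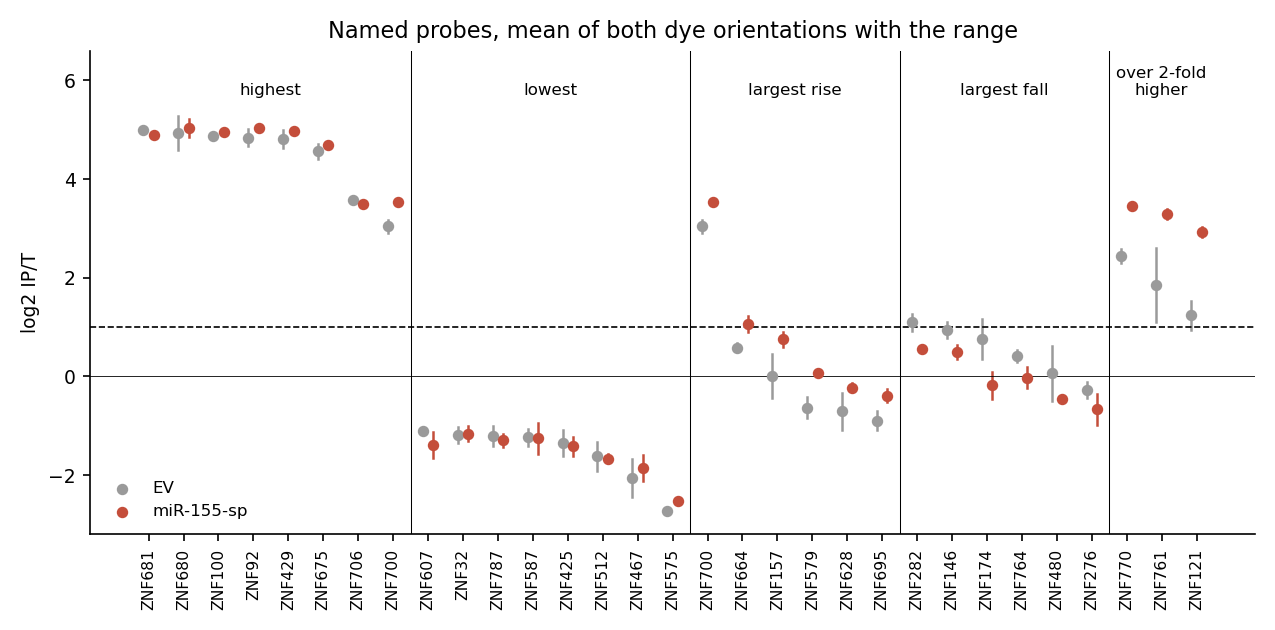
Log2 IP/T of the named probes in EV cells (grey) and miR-155-sp cells (red), as the mean of both dye orientations (point) with their 2 values as ends of the line. The highest probes lie above 3 and the lowest below -1 in both populations, while the rises and falls are small beside these differences. The rise and fall panels hold probes above background in all 8 channels. ZNF770, ZNF761 and ZNF121, the 3 probes over 2-fold higher in miR-155-sp cells, were above it in 5 or 6 channels and stand at the right.

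By chromosome, the members fell on 21 chromosomes, and 90 of the 231 probes (71 genes) on chromosome 19. There the median log2 IP/T in EV cells was 0.62, with 35 enriched probes (38.9%). The 726 other probes of chromosome 19 had a median of -0.42, and 8.4% of them were enriched. The 141 members on other chromosomes had a median of 0.14 and 42 enriched probes (29.8%). The other genes of chromosome 19 thus did not share the high IP/T, and numbered ZNF probes elsewhere were also enriched more often than the background of 15.1%. On 16 of the 21 chromosomes the members' median was above that of the other probes of the same chromosome.

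Chromosomes with many members differed widely. Chromosome 1 (18 probes, 15 genes) had a median of 0.87 and chromosome 7 (25 probes, 19 genes) one of 0.38. They had 8 (44.4%) and 12 (48%) enriched probes, against 14.4% and 17.1% of their other probes. Of the 8 on chromosome 1, 4 were for ZNF644. Chromosome 16 (21 probes, 18 genes) had -0.42 and chromosome 8 (9 probes, 8 genes) -0.52. They had 4 (19%) and 1 (11.1%) enriched probes, against 12.3% and 18.8% of their other probes. Within each of these chromosomes the genes spread over more than 2 log2 units. On chromosome 1 the genes detected in all 8 channels ran from ZNF695 at -0.89 to ZNF281 at 2.35, the latter a regulator of pluripotency. On chromosome 7 they ran from ZNF467 at -2.06 to ZNF680 at 4.93. On chromosome 8 they ran from ZNF7 at -0.95 to ZNF706 at 3.58, and on chromosome 16 from ZNF48 at -0.96 to ZNF267 at 2.90.

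**Figure D3:**
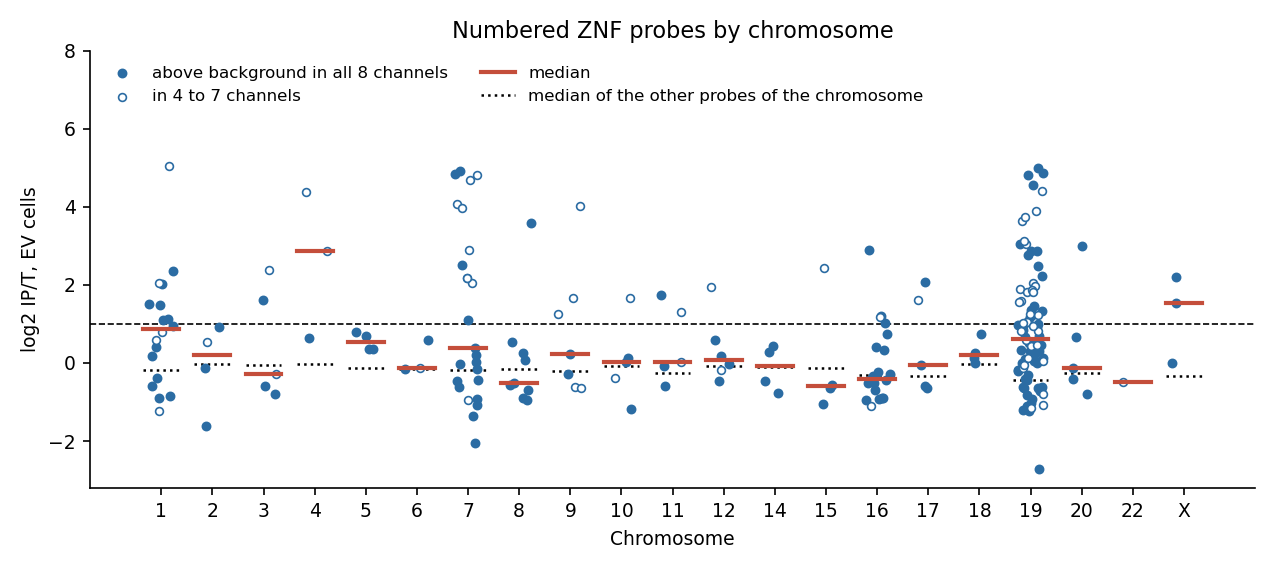
Log2 IP/T in EV cells of each numbered ZNF probe by chromosome. Filled points are probes well above background in all 8 channels and open points those in 4 to 7, red lines are medians of the members, and dotted lines medians of the other probes of the chromosome. Chromosome 19 holds 90 of the 231 probes, with a median of 0.62, and the values above 4 lie on chromosomes 1, 4, 7, 9 and 19.

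Within chromosomes, high values were found side by side. Zinc finger genes were joined into a run if at most 2 other protein-coding genes of the RefSeq table (GRCh38.p14) lay between neighbors. Of 13 runs with at least 4 member probes, 2 stood apart. The chromosome 7 run from ZNF722 to ZNF92 had 8 member probes for 4 genes, all enriched, with a median log2 IP/T of 4.38. The chromosome 19 run from ZNF101 to ZNF254 had 14 probes for 11 genes, of which 9 probes were detected in all 8 channels. Of the 14 probes 13 were enriched, with a median of 3.34. The exception, ZNF101, had 0.99 and marks the start of its run. These are the runs in which all 17 probes of the left-out genes lie, 3 and 14 of them, so they were partly selected on the same values. Together they held 22 member probes. The other 209 had a median of 0.19, and 56 of them (26.8%) were enriched, against 15.1% of all probes. With normexp the 2 runs held 19 of 38 enriched members with loess and 20 of 39 with quantile normalization. Outside them the enriched share was then near the background of 9.34% and 8.81%, so the excess there depended on the correction. The median outside them was 0.18 and 0.12, against -0.02 and -0.14 for all probes.

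Along the chromosome 19 run the values were lowest at its start. ZNF101 was followed by ZNF14 with a log2 IP/T of 1.90, ZNF253 with 2.87 and ZNF626 with 2.76 and 2.48. Then came ZNF429 with 4.82 and 3.04 and ZNF100 with 4.87, and at the end ZNF99 with 4.40, ZNF675 with 4.56 and ZNF681 with 4.99. Between ZNF100 and ZNF99 lie ZNF257, with 3.65 and 2.23 for its 2 probes, and ZNF676 with 3.73. In the chromosome 7 run ZNF273 had 4.81, 4.69 and 2.52 with 3 probes, of which the probe at 4.69 was not well above background in total RNA of either population and gives only a bound, at least 16-fold in EV and at least 11.8-fold in miR-155-sp cells. It passed the filter through its IP channels, so it had to differ. ZNF138 had 4.07 and 2.05. With normexp the median of the 22 probes was 2.29 with loess and 2.28 with quantile normalization, and 19 and 20 of them were enriched.

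The next run, from ZNF627 to ZNF791 on chromosome 19, had a median of 1.34 with 6 of 9 probes enriched, led by ZNF700 (3.13 and 3.04) and ZNF136 (1.98 and 1.86). The largest run, from ZIM3 to ZNF446 at the end of the chromosome, had a median of 0.45 and 8 of 20 probes enriched. Its values ran from -1.24 for ZNF587 to 2.05 for ZNF134. Of the runs not yet named, ZNF326 to ZNF644 on chromosome 1 had 5 probes for only 2 genes and a median of 1.13. Its 4 enriched probes were all for ZNF644. The run from ZSCAN10 to ZNF597 on chromosome 16 had a median of 0.75 with 2 of 5 probes enriched. The run from ZNF577 to ZNF331 on chromosome 19 had 0.63 with 3 of 8 enriched and a highest value of 3.90. The lowest medians were those of 2 further runs. The run from ZNF579 to ZNF580 had a median of -0.73, and none of its 4 probes was enriched. The chromosome 7 run from ZNF786 to ZNF862 had a median of -0.44 with 1 of 9 enriched, ZNF282. So 2 runs on chromosome 7 lay 4.81 log2 units apart in their medians. Outside the 2 high runs, 7 probes reached an IP/T of 8, for ZNF678, ZNF721, ZNF367, ZNF665, ZNF706 and, with 2 probes, ZNF700.

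**Figure D4:**
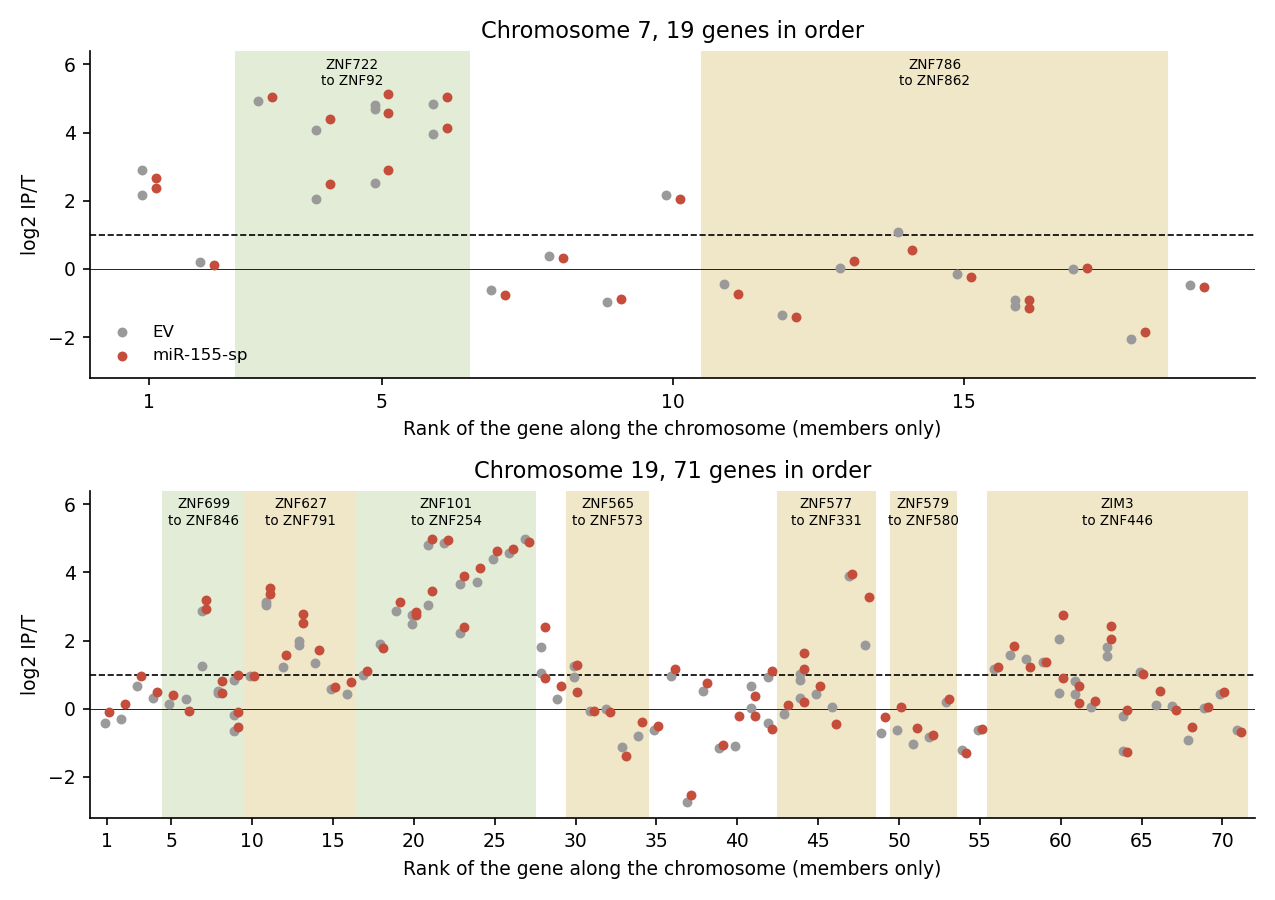
Log2 IP/T of the member probes in EV (grey) and miR-155-sp cells (red) against the rank of the gene among the members of chromosome 7 (top) and 19 (bottom), with a dashed line at an IP/T of 2. Shaded stretches are runs of neighboring zinc finger genes with at least 4 member probes, in alternating shades. The runs ZNF722 to ZNF92 and ZNF101 to ZNF254 hold 21 of their 22 probes above the dashed line in EV cells.

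Probes of the same gene gave an estimate of how far a value is that of the gene. More than 1 member probe was available for 35 genes, and the median range of log2 IP/T between probes of a gene was 0.44. The widest ranges, dimmer probes included, were those of ZNF273 (2.29) and ZNF138 (2.02) in the high chromosome 7 run. For 4 genes, ZNF134, ZNF146, ZNF174 and ZNF614, the probes lay on both sides of an IP/T of 2. Among probes detected in all 8 channels ZNF562 differed most, with 0.84, -0.18 and -0.66 for its 3 probes. ZNF473, a protein of the U7 snRNP that takes part in histone mRNA processing, had 0.93 and -0.43. ZNF587 had -0.22 and -1.24, and ZNF275 had 2.21 and 1.55. For ZNF562, ZNF473 and ZNF587 the direction of the fraction difference or its size therefore depends on the probe. Averaged per gene, 58 of 191 genes were enriched in EV cells. The background of 15.1% is a share of probes and does not apply to this count, and no share over all genes is given.

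The sponge was compared with EV to see which transcripts lose Ago2-IP signal when a competitor for miR-155 is present. The paper proposes that in these HL cells the sponge left part of the abundant miR-155 free. An unchanged IP/T therefore does not show that a transcript is no target of miR-155. None of the 231 ZNF probes was enriched in EV cells and lower by 2-fold or more with the sponge, which 0.0374% of all probes were. The reverse, enriched with the sponge and lower by 2-fold or more in EV cells, was met by 3 probes (1.3%), against 0.299%. The median change of log2 IP/T from EV to miR-155-sp was 0.05, and the middle 50% of probes ranged from -0.10 to 0.25. The median was 0.05 in both dye orientations, compared with 0.00 for all probes. For single probes the orientations differed by a median of 0.29 in this change, more than the change itself.

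IP/T was higher with the sponge in both orientations for 89 probes (38.5%), against 31.1% of all probes, and lower for 47 (20.3%), against 30.4%. Both orientations draw on the same 4 RNAs and say nothing of biological spread. EV and miR-155-sp RNAs were on different arrays, so differences between populations and between arrays cannot be told apart. This split varied with the normalization. With normexp and loess 48 probes were higher (20.8%, background 25.1%) and 71 lower (30.7%, background 30.7%), so the share of lower probes was that of all probes. With normexp and quantile normalization 66 were higher (28.6%, background 26.2%) and 56 lower (24.2%, background 30.5%). With channels scaled to a common median 97 were higher (42%, background 36.9%) and 31 lower (13.4%, background 19.8%), and the median of all probes was itself 0.06. The higher share of rising ZNF probes relative to all probes was thus not seen with normexp and loess.

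Members of chromosome 19 and of other chromosomes differed in this respect. On chromosome 19 the median change was 0.17, with 42 of 90 probes (46.7%) higher in both orientations and 11 (12.2%) lower. On the other chromosomes it was -0.0042, with 47 of 141 (33.3%) higher and 36 (25.5%) lower. The 726 other probes of chromosome 19 had a median change of 0.02, with 254 (35%) higher and 202 (27.8%) lower. Of all probes 31.1% were higher and 30.4% lower, so the other probes of chromosome 19 also leaned toward a rise, by less. The difference between the medians of the 2 groups of members was 0.18, and with other normalizations it was 0.18 (common median), 0.10 (normexp and quantile) and 0.05 (normexp and loess). With loess the chromosome 19 count itself turned to 20 higher and 23 lower. Chromosome 19 members were dimmer, with a median log2 signal of 8.35 against 9.18 for the others. From the dimmest to the brightest of the 4 signal bins the median change was 0.27, 0.11, 0.16 and 0.12 on chromosome 19. On the other chromosomes it was -0.09, 0.05, -0.0042 and 0.10. Among probes above background in all 8 channels the medians were 0.13 on chromosome 19 (58 probes) and -0.01 elsewhere (105 probes).

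A log2 IP/T change over 0.5 was seen for 23 ZNF probes, 16 up and 7 down. Over all 16057 probes it was seen for 1277, 723 up and 554 down. Of the 23 ZNF probes, 17 changed more in total than in IP RNA, compared with 117 of all 231, as the plot of both fractions shows. That count is not given over all 16057 probes. For the chromosome 19 members the median log2 change was -0.07 in total and 0.11 in IP RNA. Over all members both labellings of total RNA were higher with the sponge for 81 probes (35.1%, background 32.6%) and lower for 73 (31.6%, background 33.6%). IP RNA was higher for 99 (42.9%, background 30.7%) and lower for 49 (21.2%, background 33.2%). These signals are relative to all probes, and in pooled cells fewer cells with a transcript and less of it per cell cannot be told apart.

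**Figure D5:**
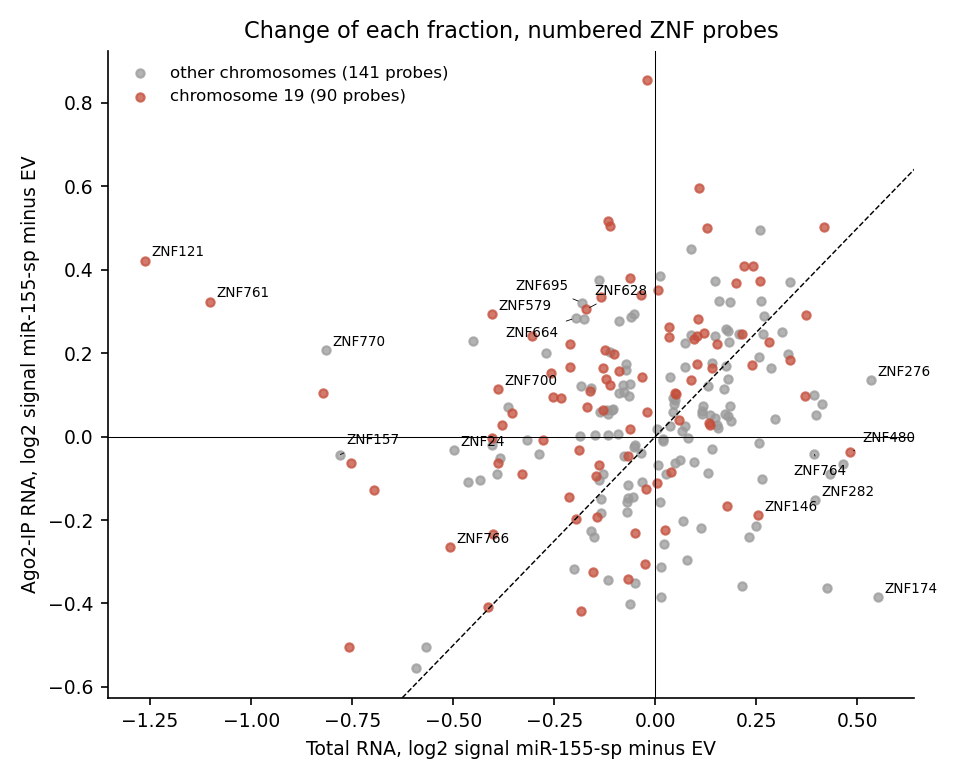
Log2 change (miR-155-sp minus EV) of the total RNA signal against that of the IP RNA signal for each of the 231 probes, with chromosome 19 in red. Probes on the dashed diagonal keep their IP/T. ZNF121, ZNF761 and ZNF770, at the left, have a total RNA change between -1.26 and -0.81 and an IP change between 0.21 and 0.42.

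The 3 probes over 2-fold higher in miR-155-sp cells were dim in total RNA. The ZNF121 probe had log2 signals of 6.67 in EV total, 7.91 in EV IP, 5.41 in miR-155-sp total and 8.33 in miR-155-sp IP RNA. The lowest value was the sponge total, and log2 IP/T was 1.24 in EV and 2.92 in miR-155-sp cells. A second ZNF121 probe, detected in all 8 channels, had a change of 0.30, from 2.88 to 3.18. ZNF761 had signals of 6.14, 8.00, 5.03 and 8.32 and a change of 1.42, which was 0.57 on the arrays with IP in Cy5 and 2.28 on the swapped arrays. In ZNF121 and ZNF761 only 1 of the 2 labellings of each total RNA was well above background. ZNF770 of chromosome 15 had 5.56, 8.00, 4.75 and 8.20, and neither labelling of its total RNA with the sponge stood well above background. IP/T there is at least 6.38, which is 0.24 on the log2 scale above its EV value, so a 2-fold difference was not shown for it. With normexp none of the 3 changed by 2-fold. With loess the changes were 0.06 for ZNF121, 0.13 for ZNF761 and -0.01 for ZNF770, and with quantile normalization 0.13, 0.39 and 0.18.

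Among probes detected in all 8 channels, changes of IP/T were below 2-fold. The largest fall with the scanner software's background correction was that of ZNF174, a repressor with a SCAN domain. Its signals were 7.70 in EV total, 8.45 in EV IP, 8.25 in miR-155-sp total and 8.06 in miR-155-sp IP RNA, so that total RNA was higher and IP RNA lower with the sponge. The change of log2 IP/T was -0.94, and a second, dimmer ZNF174 probe had -0.79. The change of the first probe was -0.34 from the Cy3 labellings and -1.53 from the Cy5 labellings. With normexp it was -0.36 with loess and -0.47 with quantile normalization, where a ZNF276 probe fell more, by 0.61. ZNF282, first described as a protein that binds a viral promoter element of HTLV-1, had signals of 7.96, 9.05, 8.35 and 8.90 and a change of -0.55. Its labellings gave -0.04 in Cy3 and -1.06 in Cy5, and normexp gave -0.14 with loess and -0.13 with quantile normalization.

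The other falls were smaller. ZNF480 had -0.52, with -0.03 in the orientation with IP in Cy5 and -1.01 in the other, and with normexp -0.09 (loess) and -0.17 (quantile). ZNF146, a protein made almost wholly of fingers, and ZNF764 had -0.44 each. The labellings of ZNF764 gave -0.40 and -0.48, and those of ZNF146 -0.07 and -0.81. With normexp and loess ZNF764 had -0.24 and ZNF146 -0.12, and ZNF146 had a second probe with 0.05 under the scanner software's correction. ZNF276 had -0.40, but 0.04 from the Cy3 labellings alone. A second ZNF276 probe, also detected in all 8 channels, had -0.08, with -0.31 and 0.14 in the 2 orientations. For ZNF480, ZNF764 and the first ZNF276 probe total RNA was higher in miR-155-sp cells by 0.39 to 0.53 on the log2 scale. Their IP RNA changed by -0.04 to 0.14.

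The largest rise with the scanner software's correction was that of ZNF157 on chromosome X. Its signals were 8.82 in EV total, 8.83 in EV IP, 8.04 in miR-155-sp total and 8.78 in miR-155-sp IP RNA, so only the sponge total stood apart from the rest. Its IP/T change was 0.74 and its total RNA change -0.78. ZNF579 had signals of 16.43, 15.80, 16.03 and 16.09 and a change of 0.70, from -0.63 to 0.06. With normexp the order of both turned, as ZNF157 had 0.25 with loess and 0.36 with quantile normalization and ZNF579 had 0.63 and 0.67. ZNF700 and ZNF695 had 0.50 each, and ZNF664 and ZNF628 had 0.48 each. The Cy3 and Cy5 labellings gave 0.25 and 0.75 for ZNF700 and 0.19 and 0.81 for ZNF695. With normexp and loess ZNF700 had 0.07, and ZNF695, ZNF664 and ZNF628 had 0.23 to 0.24. ZNF664 had a second probe with 0.12 and ZNF700 one with 0.24. As the mean of both labellings all 6 had lower total RNA in miR-155-sp cells, by 0.17 to 0.78. From Cy3 alone the total RNA change was 0.05 for ZNF628 and 0.0005 for ZNF695. Total RNA is part of the IP/T change on which the 6 were picked.

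In total RNA the largest rises among these probes were those of ZNF174 (0.55), ZNF276 (0.53) and ZNF480 (0.48), which with normexp and loess had 0.26, 0.30 and 0.04. Second probes rose by 0.42 for ZNF174 and by 0.14 for ZNF276. The largest falls were those of ZNF157 (-0.78), ZNF766 (-0.51) and ZNF24 (-0.50). With normexp and loess these were -0.27, -0.19 and -0.46, so that ZNF24 fell most of the 3. ZNF24, a SCAN-domain factor known from neural progenitor cells, had signals of 11.57 in EV total, 11.57 in EV IP, 11.07 in miR-155-sp total and 11.54 in miR-155-sp IP RNA. A second ZNF24 probe, also detected in all 8 channels, changed by only -0.11 in total RNA. Its IP/T change was 0.17. Of these 6, ZNF174, ZNF276, ZNF480 and ZNF157 are also among the named IP/T changes, into which the same total signals enter.

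The proteins that KRAB zinc fingers act through did not share the high IP/T. All 26 genes of a list of this co-repressor machinery were measured, with 38 probes and a median log2 IP/T of -0.06 in EV cells. Of these 2 (5.26%) were enriched, below the background of 15.1%. They were SMARCAD1, a chromatin remodeler, with 2.86, and MORC3 with 1.91. TRIM28 had 0.18 in EV and 0.49 in miR-155-sp cells. The 2 SETDB1 probes had 0.51 and 0.46 in EV cells. The largest change in the list was that of CHD3, an ATPase of the NuRD complex, whose log2 IP/T was -1.55 in EV and -0.46 in miR-155-sp cells. AGO2 itself had a log2 IP/T of 0.39 and 0.70.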

How the data were processed

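Intensity values in the deposited scanner output came from the software Feature Extraction of Agilent (10.7.3.1 in the file headers, 10.5.1.1 in the submitters' processing notes), which subtracts background and normalizes dyes. The authors' deposited log2 values, quantile-normalized and filtered, differed from those computed here by at most 0.02 for the numbered ZNF probes. The array design is annotated to hg18.

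Spots flagged as controls or outliers were left out, spots of a probe were averaged, and log2 signals were quantile-normalized over 8 channels, which removes overall differences between fractions. Probes were kept if well above background in at least 4 channels and within 2-fold between labellings in all 4 RNAs. Log2 IP/T is the IP minus the total value. Where neither labelling of an RNA was above background a bound is given. Background shares refer to 16057 probes. Per channel 38.8% to 61.9% of spots for genes passed that flag, and the number of arrays limits the precision. Probes were named in RefSeq (GRCh38.p14), which matched 23958 of 41000.

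With 1 RNA per group there was no test. Named probes were, among those above background in all 8 channels, the 8 highest and 8 lowest in EV IP/T, the 6 largest changes each way that had the same sign in both orientations, the 3 largest total RNA changes each way, the 4 genes whose probes differed most, and the highest and lowest gene of chromosomes 1, 7, 8 and 16, plus any probe meeting a 2-fold criterion. Other names, such as ZNF678 and those in runs, were picked after their values were seen. The members and lists were chosen with earlier results of these data known. Results were recomputed under 12 other settings, and 2 more for the runs were chosen after seeing the data. The ratio code was tested on simulated data. Finger number, KRAB domains and miR-155 sites were not analysed here. Computations used Python 3.11.15, pandas 2.3.3, R 4.3.3 and limma 3.58.1.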

Additional observations from a re-analysis of the deposited data

Results flagged for a closer look

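ZNF579 had an IP/T below 1 in both dye orientations of EV cells (log2 -0.43 and -0.84) and above 1 in both of miR-155-sp cells (0.07 and 0.06), a change of 0.70. The difference was not tested, and from EV to miR-155-sp its log2 signal changed by -0.40 in total and by 0.29 in IP RNA.

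Of the 279 numbered ZNF probes of the array outside the deposited table, 4 were well above background in all 8 channels. They belong to ZNF341, ZNF446, ZNF775 and ZNF784, with log2 IP/T of -0.69, -0.51, -0.74 and -1.98 in EV cells. Another 111 were above background in 4 to 7 channels.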

How the results depend on the processing

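The median log2 IP/T in EV cells was 0.12 with probes above background in all 8 channels, 0.26 with a common median, 0.25 per gene, 0.17 with normexp and quantile, 0.25 with normexp and loess, and 0.45 with the left-out genes put back. In miR-155-sp cells it was 0.086, 0.23, 0.19, 0.19 and 0.50 in the same order, leaving out the common median. Enriched probes of EV cells numbered 36 in all 8 channels, 39 with normexp and quantile and 38 with normexp and loess, and with the sponge 39, 44 and 36. The median change was 0.036 in all 8 channels, 0.12 with a common median, 0.039 over every detected probe of the array, 0.044 per gene, 0.063 with the left-out genes, 0.0025 with normexp and quantile and, turned, -0.016 with normexp and loess. Probes higher in both orientations then numbered 48 with loess, and those lower numbered 71 with loess, 31 with a common median and 79 over every detected probe. With either labelling alone the EV median was 0.29 to 0.34, the miR-155-sp median 0.35 to 0.37, the median change 0.053 to 0.064, and the counts at 2 or more 74 to 78 and 78 to 80. With the deposited values, or either orientation alone, medians stayed within the spread between orientations and counts within 1.5 times. Of 501 recomputed values for 50 named results and the 2 high runs, 430 kept their side or size. Another 15 came within 2-fold between fractions and 54 moved. The 2 changes that turned were those of ZNF276 (-0.83 to 0.038 with either labelling alone) and ZNF770 (-0.015 with loess). For a single probe the settings of all 8 channels and of every detected probe cannot alter its value, so agreement there was fixed in advance. The values counted as kept include smaller ones, such as the IP/T change of ZNF480, -0.52 and with normexp and loess -0.09. Of values within 2-fold between fractions, the second ZNF587 probe (-0.22) turned to 0.043 with loess, and a ZNF562 probe (-0.18) to 0.071 with loess and 0.25 with IP in Cy3. The 2 high runs kept their medians with 1 or 4 other genes allowed. Causes were not tested. Dim total RNA limits the high ratios. No paired analysis was possible because both labellings of a group come from 1 RNA and no test was run.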

Other observations

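Other zinc finger families varied in IP/T. ZBTB genes, whose products pair a BTB domain with the fingers and include regulators of lymphocyte fate, had 23 probes with a median log2 IP/T of 0.72 in EV cells, 9 of them (39.1%) enriched. Of all 16057 probes 15.1% were enriched. ZNF genes with a letter after the number had 11 probes with a median of 1.02, of which 6 (54.5%) were enriched. ZSCAN genes, with a SCAN domain, had 11 probes with a median of -0.10 and 2 enriched (18.2%), and the 4 ZKSCAN probes lay between -0.42 and -0.29. ZFP genes had 5 probes with a median of 0.07 and 1 enriched (20%). The ZSCAN and ZFP shares were near that of all probes, and these families have few probes. The median change with the sponge was 0.03 for ZBTB, 0.16 for lettered ZNF, -0.17 for ZSCAN, -0.02 for ZKSCAN and -0.12 for ZFP probes.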
